A study of Mus musculus with 6 samples.

Results

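Platelets and the megakaryocytes that shed them carry a set of adhesion receptors and granule proteins that few other blood cells make. The transcripts of 9 such genes, Pf4, Ppbp, Gp1ba, Gp1bb, Gp5, Gp6, Gp9, Vwf and Treml1, were followed here in red cell precursors with and without Bcl11a. All Affymetrix probe sets annotated to a single one of these symbols were taken, which gave 9 probe sets for 8 of the genes, out of 45037 probe sets for 18193 named genes. Gp1bb was read by 2 of them and each of the others by 1. No probe set was annotated to Gp1ba alone, so its level was not analysed here. A further probe set annotated to both Septin5 and Gp1bb was kept apart.

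RNA came from CD71+Ter119+ cells, that is, cells carrying the transferrin receptor and an erythroid surface antigen, which were sorted from the bone marrow of 6 female mice aged 6 weeks. The control group was 3 mice with the genotype Bcl11a +/+. The knockout group was 3 mice with the genotype Bcl11a fl/fl EpoR-Cre+, in which the floxed gene is deleted by a Cre recombinase driven by the erythropoietin receptor gene. The controls are not labelled with Cre, so Cre and the loss of Bcl11a cannot be told apart, and the labels do not name the strain background. Each mouse gave 1 array, and the labels name each as a separate mouse.

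Megakaryocytes and red cells arise from a shared progenitor and both need the transcription factor Gata1, while ETS family factors such as Fli1 mark the megakaryocyte side. Platelets adhere to a damaged vessel when the GPIb-IX-V receptor complex binds von Willebrand factor and when glycoprotein VI binds collagen. They then release alpha granules, which store the chemokines platelet factor 4 and pro-platelet basic protein, von Willebrand factor and the receptor TLT-1. The integrin CD41, the product of Itga2b, is the best known surface marker of this lineage.

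The promoters of Pf4, Ppbp, Gp5 and Gp6 are shown because Pf4 gave the signal farthest above the array median, Ppbp varied most between mice, and Gp5 and Gp6 had the highest and the lowest estimated change. Each runs from 250 bases before to 50 bases after the start of the gene in RefSeq, build GRCm38.p6, 5′ to 3′ on the strand of the gene. Capitals mark GATA motifs (AGATAA or TGATAA) and ETS motifs (AGGAAG or CGGAAG) on either strand. The windows are chr5:90772185-90772484 on the plus strand for Pf4, chr5:90768268-90768567 on the plus strand for Ppbp, chr16:30310732-30311031 on the minus strand for Gp5 and chr7:4397695-4397994 on the minus strand for Gp6.
Pf4: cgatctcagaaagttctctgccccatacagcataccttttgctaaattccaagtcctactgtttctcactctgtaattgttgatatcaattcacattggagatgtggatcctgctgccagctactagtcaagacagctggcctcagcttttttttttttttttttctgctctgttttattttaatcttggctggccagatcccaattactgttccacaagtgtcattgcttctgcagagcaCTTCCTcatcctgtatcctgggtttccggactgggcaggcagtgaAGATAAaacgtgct
Ppbp: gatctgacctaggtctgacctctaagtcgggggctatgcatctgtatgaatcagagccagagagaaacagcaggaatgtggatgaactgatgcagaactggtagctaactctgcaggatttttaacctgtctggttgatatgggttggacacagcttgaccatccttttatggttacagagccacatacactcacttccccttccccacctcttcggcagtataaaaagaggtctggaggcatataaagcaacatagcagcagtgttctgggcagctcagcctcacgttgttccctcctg
Gp5: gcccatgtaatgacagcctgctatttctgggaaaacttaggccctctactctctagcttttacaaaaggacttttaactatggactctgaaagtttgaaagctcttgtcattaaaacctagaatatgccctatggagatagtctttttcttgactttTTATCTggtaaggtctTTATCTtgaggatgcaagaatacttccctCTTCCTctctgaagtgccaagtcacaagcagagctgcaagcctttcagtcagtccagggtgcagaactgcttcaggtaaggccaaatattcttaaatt
Gp6: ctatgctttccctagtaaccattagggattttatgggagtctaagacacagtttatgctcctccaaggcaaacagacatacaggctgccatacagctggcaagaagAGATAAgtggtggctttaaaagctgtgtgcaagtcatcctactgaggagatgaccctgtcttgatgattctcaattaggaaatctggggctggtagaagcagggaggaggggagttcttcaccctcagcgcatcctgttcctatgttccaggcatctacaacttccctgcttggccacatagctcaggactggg

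RefSeq promoters were matched for 8 of the 9 genes, all but Vwf. Pf4 and Ppbp are direct neighbours in RefSeq, with 0 genes between them, in a cluster of CXC chemokine genes. The Pf4 window held 1 GATA motif, which began 37 bases after the start, and 1 ETS motif, which began 9 bases before it, while the Ppbp window held neither. The Gp5 window held 2 GATA motifs and 1 ETS motif, and that of Gp6 held 1 GATA motif. Among the 8 windows, 4 held a GATA motif, 5 an ETS motif and 3 both. Of 32851 promoter windows of this length, 18.6% held a GATA motif, 46.5% an ETS motif and 7.7% both. No motif of one kind overlapped one of the other kind in these 8 windows. A match of letters is a description of the sequence and does not show that a factor binds there.

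The cells carried erythroid transcripts and strong signals of other cells as well. Tfrc, which encodes CD71, averaged 14290 in control and 18540 in knockout mice, and erythroid markers were measured for 7 of 8 genes. Neutrophil markers, measured for 7 of 7 genes, summed to 172880 to 173987 in the controls and 159987 to 166864 in the knockouts, and S100a8, a neutrophil calcium-binding protein, had means of 39930 and 38720. Macrophage markers (6 of 6) summed to 8198 to 9205 and 9327 to 10004, and B cell markers (5 of 6) to 8431 to 10288 and 6055 to 7714. No marker of these 4 cell types was listed at 1.00 or below. In bulk RNA the platelet signals cannot be assigned to one cell type, and more cells of a type and more RNA per cell cannot be told apart.

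None of the 9 probe sets passed the test of knockout against control. With limma on log2(intensity + 16), adjusted over all probe sets by the Benjamini-Hochberg method, 0 of 9 passed an adjusted p of 0.05, and their adjusted p ran from 0.333 to 0.944. Of all probe sets, 0.147% passed, 0.14% as higher and 0.00666% as lower in the knockout. At an unadjusted p of 0.05, 1 of 9 passed, against 12.4% of all probe sets, and with an intensity trend and robust moderation 0 of 9 passed, against 3.21%. The log2 changes of the members ran from -0.45 to 0.42, with 6 above 0, 3 below and a median of 0.1, against a median of -0.01 over all probe sets. The groups overlapped in 8 of the 9. Gp6 was the exception, with the knockouts below the controls. Of all probe sets, groups did not overlap in 19.5%, with the knockouts above in 10.6% and below in 8.91%. A p that misses the threshold does not show equal levels, so the 95% interval of each change is given below.

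**Figure D1:**
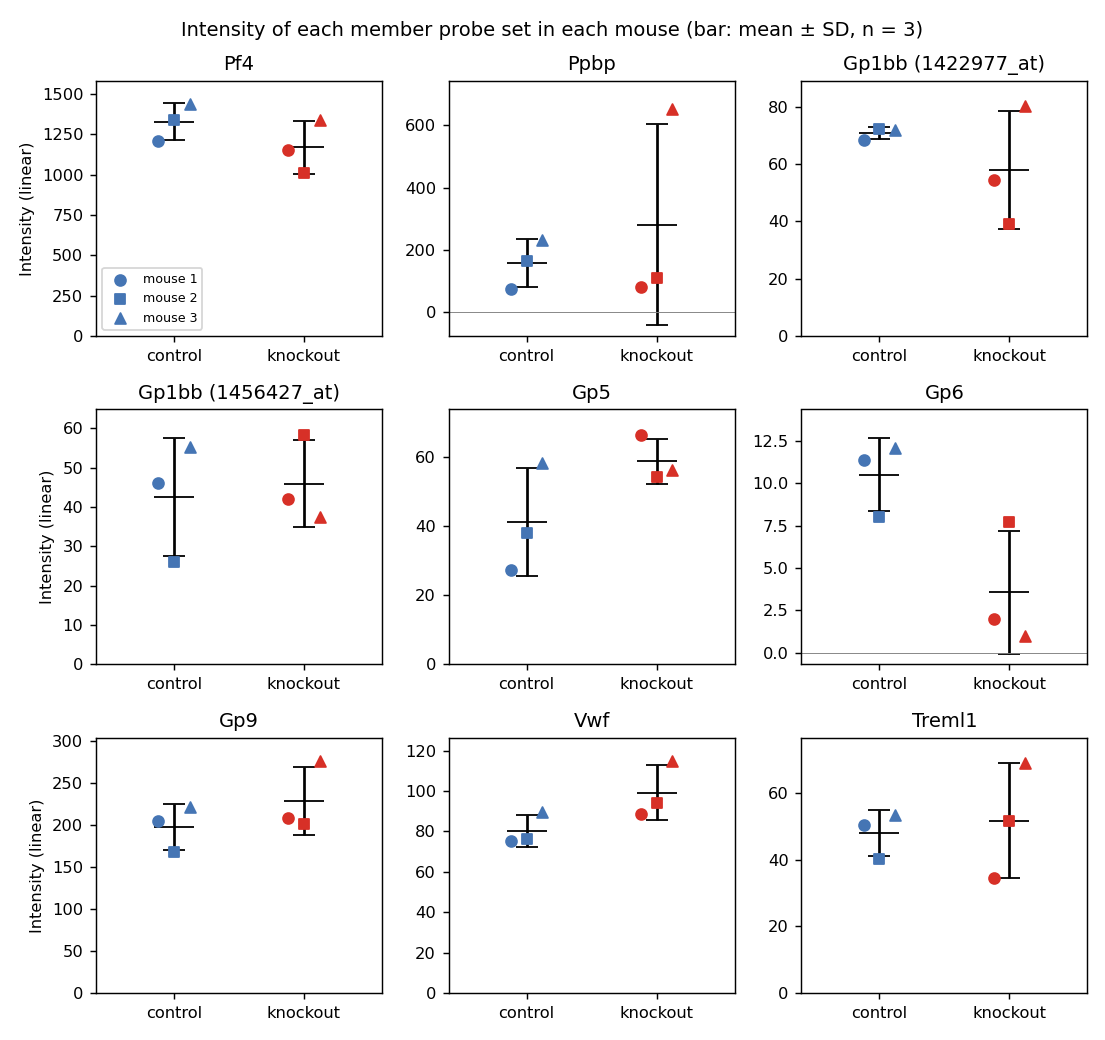
Linear intensity (vertical axis) of the 9 member probe sets in the 3 control mice (blue) and the 3 knockout mice (red), where the symbol marks the mouse number and the black bars the mean ± SD; the vertical scale differs between panels. Only in Gp6 do the 2 groups lie apart, at intensities between 1.0 and 12.06, and in Ppbp knockout mouse 3 stands alone at 653.

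Among the granule chemokines, Pf4 (probe set 1448995_at) was clearly above the array medians of 67.5 to 70.9 on all 6 arrays. Platelet factor 4 binds heparin and is among the most abundant alpha granule proteins. Its intensities were 1209, 1339 and 1434 in the controls and 1155, 1011 and 1340 in the knockouts, so the highest knockout reached the level of the middle control. The means were 1328 ± 113 and 1169 ± 165 (SD, n = 3), a log2 change of -0.19 ± 0.14 (SE, limma, adjusted p = 0.634). The 95% interval ran from 0.697-fold to 1.11-fold, so it left room for a modest fall and little room for a rise. Intensities of different probe sets depend on their probes and do not rank amounts of RNA.

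Ppbp (probe set 1418480_at) encodes the precursor of the neutrophil-attracting chemokine CXCL7 and of beta-thromboglobulin. It read 75.3, 165 and 230 in the controls and 79.0, 109 and 653 in the knockouts. Of the knockout values, 2 were within the range of the controls and the third was above it. The log2 change was 0.32 ± 0.78 (SE, limma, adjusted p = 0.905), with an interval from 0.343-fold to 4.57-fold. The direction of the log2 change turned without knockout mouse 3 (-0.55) and without control mouse 1 (-0.08), and the ratio of mean intensities was 1.79 with all mice and 0.601 without that knockout. The residual SD of Ppbp within groups was 1.2 on the log2 scale, against a median of 0.21, and 13 of the 45037 probe sets had a larger one.

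Vwf (probe set 1435386_at) encodes von Willebrand factor, the adhesive protein that megakaryocytes and endothelial cells both make and that tethers platelets to the vessel wall. Its intensities were 75.3, 76.2 and 89.3 in the controls and 88.8, 94.0 and 115 in the knockouts. The 2 groups overlapped only by the highest control, which was just above the lowest knockout. The log2 change was 0.26 ± 0.13 (SE, limma, adjusted p = 0.477), with an interval from 0.964-fold to 1.48-fold. Markers of endothelial cells were measured for 7 of 7 genes, 0 of which passed the test, and their summed intensity was 432 to 528 in the controls and 426 to 654 in the knockouts. No endothelial marker was listed at 1.00 or below, Tie1 was the dimmest with means of 7.58 and 5.53, and the part of endothelial cells in the Vwf values was not tested.

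The receptor of von Willebrand factor is built from 4 chains, of which Gp1ba makes the ligand-binding one. Gp1bb, the smaller chain bound to it, gave 68.3, 72.1 and 72.0 in the controls and 54.3, 39.2 and 80.2 in the knockouts with probe set 1422977_at. The controls differed by at most 1.06-fold and the knockouts by 2.04-fold, on either side of the controls. The log2 change was -0.27 ± 0.20 (SE, limma, adjusted p = 0.640). The other Gp1bb probe set, 1456427_at, gave 46.0, 26.1 and 55.3 in the controls and 41.9, 58.3 and 37.5 in the knockouts, a log2 change of 0.10 ± 0.23 (adjusted p = 0.898). The 2 Gp1bb probe sets thus had estimates of opposite sign, and the order of the mice differed between them. The probe set shared with Septin5, a neighbouring septin gene whose transcripts can run into Gp1bb, read 1120, 1083 and 898 in the controls and 867, 728 and 1030 in the knockouts, a log2 change of -0.24 ± 0.16 (adjusted p = 0.588). Which of these genes gave that signal cannot be told from the annotation.

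Gp9 encodes glycoprotein IX, the small chain needed for the complex to reach the surface. Its probe set 1419720_at gave 205, 168 and 222 in the controls and 209, 202 and 276 in the knockouts. Knockout mouse 3 lay above every control, and the other knockouts lay within the range of the controls. The control at 168 lay below every knockout. The log2 change was 0.19 ± 0.16 (SE, limma, adjusted p = 0.686), with an interval from 0.869-fold to 1.5-fold.

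Gp5 encodes glycoprotein V, a chain that thrombin cleaves and that is not needed for surface expression of the rest of the complex. It gave 27.4, 37.9 and 58.1 in the controls and 66.2, 54.0 and 56.1 in the knockouts with probe set 1422817_at. Control mouse 3 lay within the knockout range and the other controls lay below it. The log2 change of 0.42 ± 0.21 (SE, limma, adjusted p = 0.469) was the highest estimate of the 9 probe sets, with an interval from 0.95-fold to 1.88-fold. All 6 values were below the median of their array.

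Gp6 encodes glycoprotein VI, the collagen receptor that signals through the Fc receptor gamma chain. Its probe set 1446554_at gave 11.4, 8.03 and 12.1 in the controls and 1.97, 7.69 and 1.00 in the knockouts. Every knockout lay below every control, but the nearest pair lay at 8.03 and 7.69, and the knockout value of 1.00 is one that 775 to 874 probe sets per array share. The log2 change was -0.45 ± 0.16 (SE, limma, p = 0.0259, adjusted p = 0.333), and the exact two-sided permutation p was 0.1, the smallest that 3 against 3 mice allow. On this dim probe set the size of the change depends on the constant added before the logarithm, and with a pseudocount of 1 the log2 change was -1.61 (adjusted p = 0.402). Its control mean stood at percentile 10.9 of all probe sets, and the files hold no detection calls, so whether Gp6 was detected cannot be said.

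Treml1 encodes TLT-1, a receptor that lies in the alpha granule membrane and moves to the surface of activated platelets. Its probe set 1452630_at gave 50.6, 40.2 and 53.5 in the controls and 34.5, 51.6 and 69.1 in the knockouts. The knockout range enclosed that of the controls. The log2 change was 0.05 ± 0.21 (SE, limma, adjusted p = 0.944), the smallest of the 9 in size, with an interval from 0.735-fold to 1.47-fold.

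The integrin chain Itga2b, or CD41, stood apart from the 9 probe sets. It read 539, 461 and 538 in the controls and 3204, 3683 and 3673 in the knockouts, with no overlap. It rose by 2.74 ± 0.12 on the log2 scale (SE, limma, adjusted p = 0.000787), with an interval from 5.5-fold to 8.14-fold. The interval of every member ended below 5.5-fold, the nearest being Ppbp at 4.57-fold and the next Gp5 at 1.88-fold. With a pseudocount of 1, which damps dim probe sets less, the intervals ended at 1.97-fold or below for 7 of the 9, at 2.44-fold for Gp5 and at 6.16-fold for Ppbp, and that of Itga2b ran from 5.55-fold to 8.48-fold. The interval of Ppbp therefore met that of Itga2b on this scale. The difference between the log2 change of Itga2b and that of each member was 2.32 to 3.19. Its exact two-sided permutation p was 0.1 for 8 of the 9 and 0.2 for Ppbp, where 0.1 is the smallest this design allows and no difference can pass 0.05. The rise of Itga2b enters each difference, so these p do not test the members themselves. Itgb3, the beta chain that pairs with CD41 on platelets, gave 172, 207 and 184 in the controls and 163, 144 and 216 in the knockouts, a log2 change of -0.11 ± 0.16 (limma, adjusted p = 0.828).

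**Figure D2:**
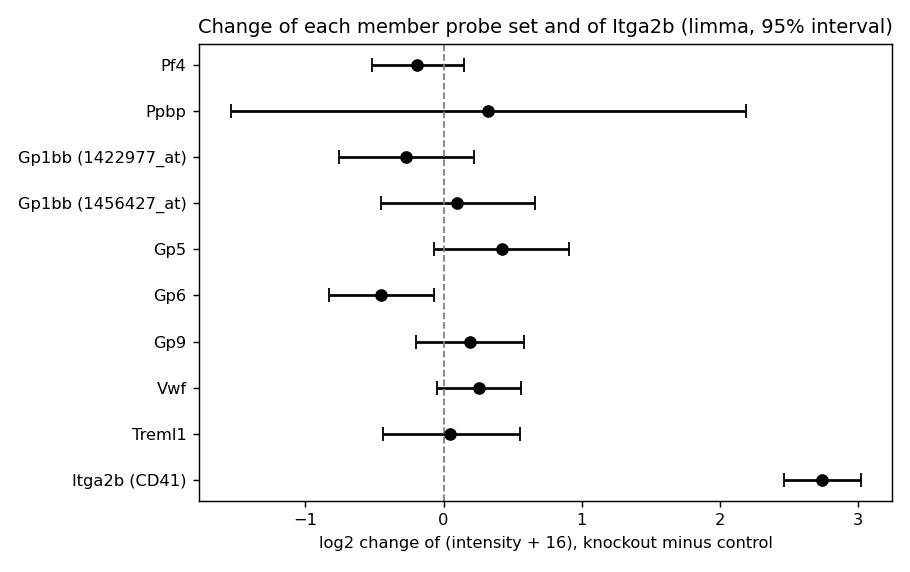
Log2 change of knockout minus control (horizontal axis, on intensity + 16) with its 95% interval from limma for the 9 member probe sets and for Itga2b. The intervals of all members but Gp6 include 0, and that of Gp6 ends at -0.07, while that of Itga2b begins at 2.46.

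Within each group, mouse 3 was the highest in most of the 9 probe sets. In the controls, mouse 3 had the highest value in 8 of the 9 probe sets, while it was the highest control in 29.4% of all probe sets and in 15 of the 69 other platelet genes listed below. In the knockouts, mouse 3 had the highest value in 6 of the 9, while it was the highest knockout in 34.3% of all probe sets and in 30 of the 69 other genes. These shares were counted after the values had been seen, and the probe sets of a mouse share 1 RNA sample. After each group's mean was taken away, Pf4 went with Ppbp (r = 0.85), with Gp1bb at probe set 1422977_at (r = 0.89) and with Vwf (r = 0.78) over the 6 arrays, and Vwf with Ppbp (r = 0.93). The r with Pf4 was lower for Gp9 (0.66), Gp5 (0.52) and Treml1 (0.38). Gp6 (r = -0.71 with Pf4) and the other Gp1bb probe set (r = -0.37) did not follow Pf4, and between the Gp1bb probe sets r was -0.52. These correlations over 6 arrays describe the libraries and carry no test. Taking away the group means also leaves fewer free values than arrays. In those with Ppbp, knockout mouse 3 weighs most, as its Ppbp deviation of 1.74 was the largest.

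Knockout mouse 3 was highest in Pf4, Ppbp, Gp1bb at probe set 1422977_at, Gp9, Vwf and Treml1. Of the 69 other platelet genes, 30 were highest in that knockout, and Tubb1 and Clec1b are named here after their values were seen. Tubb1, the tubulin of the platelet marginal band, read 49.1, 45.8 and 116 in the knockouts and 42.0, 66.0 and 45.1 in the controls. Clec1b, the podoplanin receptor CLEC-2, read 78.7, 74.3 and 115 in the knockouts and 102, 87.1 and 89.5 in the controls. Selp, the P-selectin of alpha granules, went the other way and was lowest in that mouse, at 88.3 against 107 and 94.3. Among the listed receptors, that mouse was also the lowest knockout in F2r, F2rl3, P2ry1, P2rx1, Tbxa2r, Pecam1, Cd36 and Cd226. The summed markers of stem and progenitor cells (4 of 5 measured) were 5036, 5359 and 3967 in knockout mice 1, 2 and 3, those of basophils and mast cells (4 of 5) were 5287, 4940 and 3727, and those of endothelial cells were 654, 426 and 483. The part of these cells in the values of the members was not tested.

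**Figure D3:**
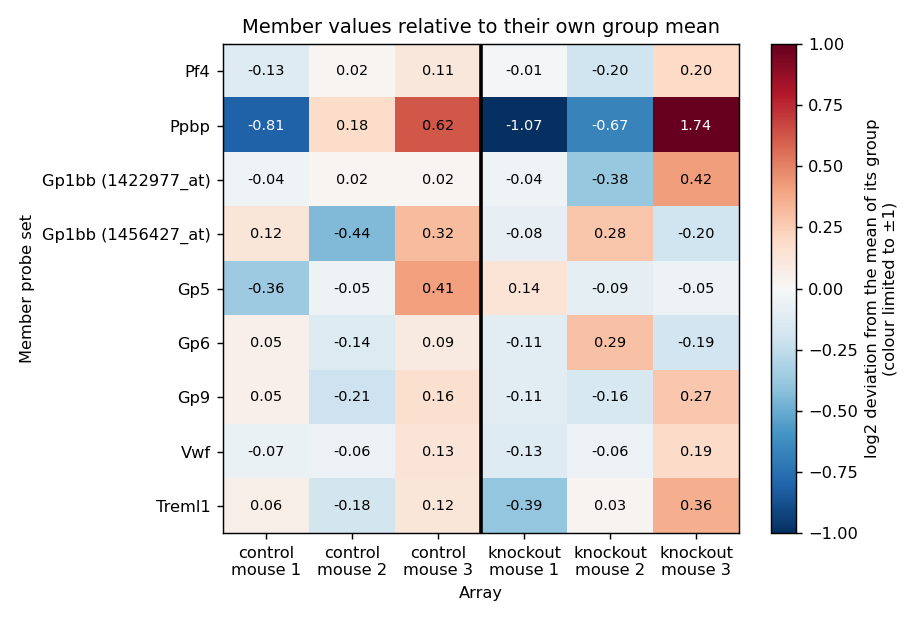
Deviation of each array from the mean of its own group, in log2(intensity + 16), for the 9 member probe sets (rows) in the 3 control and 3 knockout mice (columns), with the colour limited to ±1. Red in the column of control mouse 3 covers all rows, and Ppbp in knockout mouse 3 deviates most, by 1.74.

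By the rule for likeness, the 5 other genes in the brighter 50% whose log2 values followed Pf4 most closely over the 6 arrays after the group means were taken away were Atp5pb (r = 0.993), Zfp180 (r = 0.989), Seh1l (r = 0.988), Ddx1 (r = 0.988) and Spcs1 (r = 0.986). They encode, in this order, a subunit of ATP synthase, a zinc finger protein, a nuclear pore component, an RNA helicase and a signal peptidase subunit. None of the 5 is a platelet gene by the lists used here. So many genes were compared over so few arrays that values this close to 1 are a description only.

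Around the members, 69 of 73 further genes of megakaryocytes and platelets were measured, each by its brightest probe set, and 1 rose (Itga2b), 0 fell and 68 did not pass. Over all 18193 genes, 0.214% passed. Groups did not overlap in 9 of the 69 as higher and in 14 as lower. Of all genes, groups did not overlap in 21.6%, as higher in 12.4% and as lower in 9.22%. Their median log2 change was -0.11, against 0 over all genes, and 18 were above 0.

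Of 12 measured megakaryocyte transcription factors 0 passed, with 6 estimates above 0 and 6 below. The 4 with the smallest p are factors that red cells also use, Tal1 (0.91 ± 0.18, limma, adjusted p = 0.157), Gata1 (0.70 ± 0.17, adjusted p = 0.216), its cofactor Zfpm1 (0.65 ± 0.14, adjusted p = 0.178) and Nfe2, which drives platelet release (0.56 ± 0.13, adjusted p = 0.201). All 3 knockouts lay above all 3 controls in each of these 4. Fli1, the ETS factor that activates many genes of the megakaryocyte, read 1254, 1581 and 1579 in the controls and 1385, 1379 and 1288 in the knockouts, a log2 change of -0.11 ± 0.13 (adjusted p = 0.763). Counts here depended on the moderation, and with an intensity trend and robust moderation 6 of the 12 passed, the 4 just named with Gfi1b as higher and Etv6 as lower, while Fli1 did not. Under that moderation 4.23% of all genes passed. The erythroid markers summed to 69406 to 83977 in the controls and 88662 to 97466 in the knockouts. These higher sums moved with the transcription factors, and their part in those values was not tested.

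Among 18 other platelet receptors and adhesion molecules, 1 rose and 0 fell, and 15 had estimates below 0. P2ry1, an ADP receptor, had a log2 change of -0.69 ± 0.18 (SE, limma, adjusted p = 0.233), and P2ry12, the ADP receptor blocked by clopidogrel, had one of -0.19. Both were dim and lay below the median of every array, with means of 44.2 in control and 20.9 in knockout mice for P2ry1. Selp had a log2 change of -0.39. Of 14 genes of platelet signalling and lipid mediators, 0 passed and the median was -0.10. They included Plcg2, a phospholipase that acts below Gp6 (-0.25 ± 0.10, adjusted p = 0.360), the kinase Syk (-0.21), the G protein Gnaq (-0.22) and thromboxane synthase, Tbxas1 (-0.24). Fcer1g, the gamma chain that pairs with Gp6 and that myeloid cells also make, had a log2 change of -0.07.

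Of 15 genes of granule cargo and granule formation, 0 passed and the median was -0.08. Thbs1, the alpha granule protein thrombospondin, had intensities of 1029 ± 124 and 614 ± 64 (SD, n = 3), a log2 change of -0.73 ± 0.14 (SE, limma, adjusted p = 0.146), and with an intensity trend and robust moderation it passed (adjusted p = 0.00192). Slc35d3, needed for platelet dense granules, had a log2 change of -0.60 ± 0.12 (adjusted p = 0.158), Pdgfb one of -0.32 and Clu one of 0.19. Of 10 genes of the cytoskeleton, 0 passed and the median was -0.13. Myl9, a myosin light chain, had a log2 change of 0.51 at mean intensities of 11.3 and 23.5, Mylk one of -0.20, Tpm4 one of -0.22 and Flna one of -0.16.

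**Figure D4:**
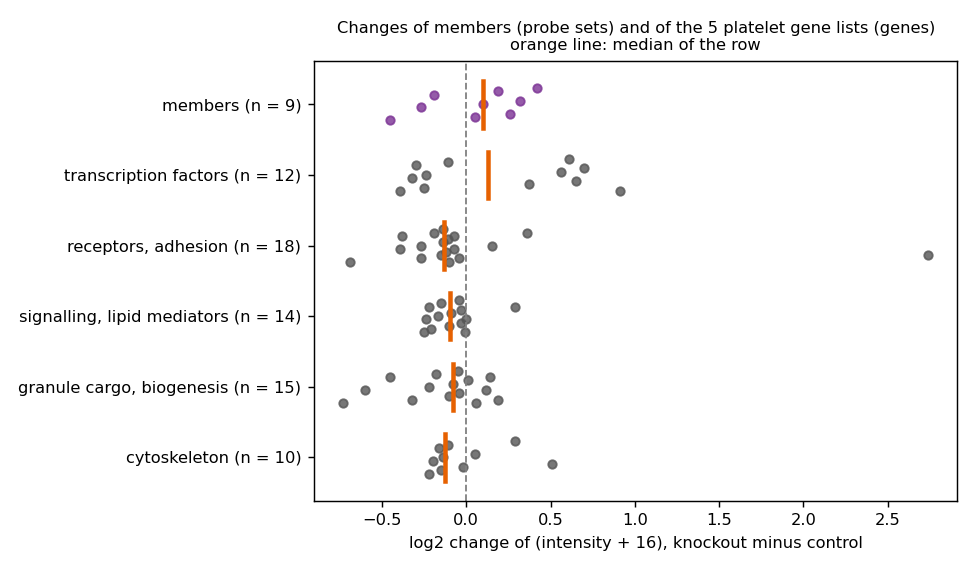
Log2 change of knockout minus control (horizontal axis, on intensity + 16) of the 9 member probe sets (purple) and of the genes of 5 platelet lists (grey), 1 point each, with the median of each row in orange. The lone point at 2.74 is Itga2b, and the members run from -0.45 to 0.42.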

How the data were processed

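The authors deposited 1 table of Affymetrix intensities on a linear scale, 1 value per probe set and array. Per the labels' protocols, RNA was isolated with Trizol and labelled with biotin as cRNA; how probes were summarised, background-corrected and scaled was not given in the sources used here. Array medians lay between 67.5 and 70.9. Log2 medians and interquartile ranges differed by at most 0.057 and 0.07, under the limit of 0.1, so no further normalization was done. Probe sets were named from the platform annotation through RefSeq (34741 of 34945 single-symbol probe sets matched, and 932 had several symbols). The brightest single-symbol probe set stood for a gene in the lists; the members are given by probe set.

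Knockout and control were compared in limma 3.58.1 (R 4.3.3; lmFit and eBayes without trend, two-sided, no filter) on log2(intensity + 16) over all 45037 probe sets, with Benjamini-Hochberg adjustment and a threshold of 0.05. The added constant damps changes of dim probe sets. On simulated data the fit recovered 24% of probe sets raised by 1 log2 unit and 80% of those raised by 2. The changed probe sets were all drawn from the brighter 50%, so these shares do not cover the dim members. The genes named are all members, up to 4 genes per list by p with any past the threshold, and the 5 most like Pf4. Itgb3, Fcer1g and Fli1 are named for their known roles, and Gfi1b and Etv6 for passing under an alternative. Tubb1, Clec1b, the receptors lowest in knockout mouse 3 and the markers Tfrc, S100a8 and Tie1 are named after their values were seen. The members and lists were chosen with earlier results of these data known. Mouse numbers are shared between the groups in the titles, but over all probe sets same-numbered mice did not deviate together. In the members, mouse 3 was the highest in 8 of 9 probe sets in the controls and in 6 of 9 in the knockouts. Alternatives were quantile, median and cyclic loess normalization (the last added after seeing the data), pseudocounts of 1 and 64, robust moderation with an intensity trend, the brighter 50% of probe sets, the mouse number as a block, the mean of a gene's probe sets, and leaving out each mouse. With 1 array per mouse, precision is set by the number of mice.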

Additional observations from a re-analysis of the deposited data

How the results depend on the processing

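No member probe set passed under any of the alternatives run. In the brighter 50% only Pf4, Ppbp, Gp9 and Vwf remained, so the other members were not tested there. Of 130 log2 changes of members recomputed under an alternative, 123 kept their direction. The direction turned for Ppbp without control mouse 1 (-0.08) or knockout mouse 3 (-0.55), for Gp1bb at probe set 1456427_at without control mouse 2 (-0.12) or knockout mouse 2 (-0.04) and in the mean of both Gp1bb probe sets (-0.08), and for Treml1 without control mouse 2 (-0.04) or knockout mouse 3 (-0.13). On leaving out 1 mouse these changes ranged from -0.55 to 0.86 for Ppbp, from -0.12 to 0.26 for that Gp1bb probe set and from -0.13 to 0.25 for Treml1, and, with no change of direction, from -0.29 to -0.09 for Pf4, -0.48 to -0.08 for Gp1bb at probe set 1422977_at, 0.24 to 0.62 for Gp5, -0.6 to -0.36 for Gp6, 0.06 to 0.27 for Gp9 and 0.16 to 0.32 for Vwf. Groups did not overlap in 1 member probe set in the main fit and in 2 after quantile, median or cyclic loess normalization. The count was 0 in the brighter 50%, which left out Gp6, and 1 to 3 on leaving out 1 mouse. The share over all probe sets, 19.5%, was computed only for the main setting, and smaller groups fail to overlap more easily. Over all probe sets, 66 passed, against 38 with a pseudocount of 1, 558 with 64, 853 in the brighter 50%, 1445 with an intensity trend and robust moderation, and 27 to 41 on leaving out 1 mouse. Among the listed transcription factors, 0 passed, against 2 with a pseudocount of 64, 3 in the brighter 50% and 6 with a trend; for granule genes 0 became 1 (Thbs1) under each of these. With the mouse number as a replicate block 14 probe sets passed and 0 of the members. Over all probe sets, same-numbered mice had correlations of deviations of -0.03, -0.01 and -0.04, and no mouse correlated best with its own number. Whether same-numbered mice also shared a litter or a batch was not tested. Dim members (Gp5, Gp6, Treml1 and Gp1bb) have no detection call, which limits what their changes show.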
